A study of Drosophila melanogaster with 2 samples.

Results

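The genes described here encode the proteins of the small subunit of the cytosolic ribosome of Drosophila melanogaster. They were taken as the protein-coding genes whose symbol starts with RpS and a digit, together with sta, which encodes the RpSA protein. This gave 39 of the 13968 protein-coding genes on the chromosome arms in the Ensembl annotation, and 12 of the 39 are lettered copies of 6 paralog pairs. The question put to them is where CG17568, a predicted zinc finger protein, was found at their promoters. Whole embryos of both sexes, collected 0 to 20 h after egg laying, came from a transgenic line that stably carries CG17568 fused to green fluorescent protein at its C terminus. There was 1 group, with 2 biological replicates numbered 1 and 2, and no other genotype, age or treatment. All samples therefore carry the tagged protein, and mixed embryos do not show in which cells a site was occupied. The labels of both samples name a transcription factor ChIP-seq assay, but their free text calls them input controls. They were read here as ChIP, and every value below depends on that reading.

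The data are 4 peak lists on the dm6 genome, with 1 position of highest signal, the summit, for each peak. The list thresholded by the irreproducible discovery rate (IDR), a measure of how well peaks repeat between replicates, held 3396 peaks. The relaxed lists, made by the authors from replicate 1, from replicate 2 and from both replicates pooled, held 30000 peaks each. A gene was counted as having a summit where a summit lay within 500 bp of any of its annotated transcription start sites (TSSs). Signal values have no stated scale, so they were used to rank peaks within a list, with rank 1 the highest. The lists give no read counts, so depth is unknown. The earlier results that led to these genes used the same lists, so presence, rank and distance are given as descriptions with no test. Peaks and genes are not replicates.

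The small subunit binds messenger RNA, finds the start codon and checks the match between codon and transfer RNA. Its head and its body, with the platform, are folded from ribosomal RNA and held by the proteins that these genes encode. Ribosomal protein genes are among the most strongly transcribed genes of a growing embryo, and loss of 1 copy of many of them gives the Minute phenotype of slow growth and thin bristles in flies. In flies, many of these genes start transcription at a pyrimidine-rich element called the TCT initiator, in place of the usual initiator, and the start sites lie within runs of C and T.

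The start sites of chosen members are printed below, with CTTT, the letters of the core of this element, marked where found. It is called the core here by its letters alone, and a CTTT several bases from the TSS was not shown to be the initiator. Each line gives 30 bases on the strand of the gene, from 15 bases before the annotated TSS to 14 after it, and the capitals mark the CTTT core whose C lies nearest to the TSS, within 10 bp. Sequences were read from the RefSeq Release 6 genome, which is the dm6 build, and an annotated TSS is base 16 of each line. In genes with several TSSs only 1 is printed. At RpS27, RpS4, RpS10b and RpS29 it is not the outermost. The first 7 genes had an IDR summit and are shown for the place of the core, which the summit lay close to in some and not in others. The next 3 had a summit in 1 replicate only, RpS3 had none in any list, and the last 3 are copies whose partner is the more strongly marked.
RpS27 (chr3R:25247458-25247487, minus strand): ctgcgatttaccccacttcCTTTtccgtgt
RpS4 (chr3L:13041786-13041815, plus strand): caccgcccgcaaatctgcCTTTtccttttc
RpS10b (chrX:19598025-19598054, plus strand): cttcttgtcatcccttccgtttccCTTTct
RpS25 (chr3R:11216273-11216302, minus strand): ggccgtttccgccctccatCTTTctgcatt
RpS19a (chrX:16637879-16637908, plus strand): ccaacttcacgcgccttgttCTTTtttccg
RpS14a (chrX:7933727-7933756, plus strand): ttgacagctacgtcaaccttCTTTtttgat
RpS14b (chrX:7934883-7934912, plus strand): cagctgtgttgtttttgccttCTTTttttc
RpS28b (chrX:9554608-9554637, plus strand): ctgtgccgataaccgctcaacttcCTTTtt
RpS29 (chr3R:9778082-9778111, plus strand): gggtgccatcgctagttcCTTTtcttttcg
RpS6 (chrX:7901317-7901346, minus strand): tacttcctcctatcggtCTTTttcaaccct
RpS3 (chr3R:23358797-23358826, plus strand): gcgcgggcacactggcctCTTTcttttctg
RpS10a (chr3R:27652745-27652774, plus strand): gaagtttcggtaaatactaatttaagctgg
RpS19b (chr3R:23933516-23933545, minus strand): acttgccaatcgtccattttgactaaagtc
RpS28a (chr3R:30022634-30022663, minus strand): gcagcactcacagcttcaaattcaaatctt
In each printed gene with an IDR summit the core began 3 to 9 bases after the printed TSS. The search itself was limited to 10 bp, a width chosen after the sequences were seen, which bounds this range. RpS10a, RpS19b and RpS28a had no CTTT in this window, and of the other printed genes only RpS6 had its C within 2 bp of the TSS.

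CG17568 summits stood at the promoters of many of the small subunit genes. Of the 39 genes, 21 (53.8%) had an IDR summit, while 10.1% of all protein-coding genes did (1406 of 13968). In the pooled relaxed list 22 members (56.4%) had a summit, against 29.2% of all coding genes. Of these 22 members 21 (95.5%) reached the IDR list, against 34.5% of the 4077 coding genes with a pooled summit. The exception was RpS19b. A pooled relaxed summit at a small subunit gene was thus nearly always one of the strongest peaks of the list. Each replicate alone gave a like picture. Among the 3396 highest peaks of replicate 1, summits stood at 21 members (53.8%) and at 10.2% of coding genes. In replicate 2 this held for 24 members (61.5%) and 11.5% of coding genes. In the whole relaxed lists, 25 members (64.1%) had a summit in replicate 1, against 30.2% of coding genes, and 26 (66.7%) in replicate 2, against 32.8%.

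**Figure D1:**
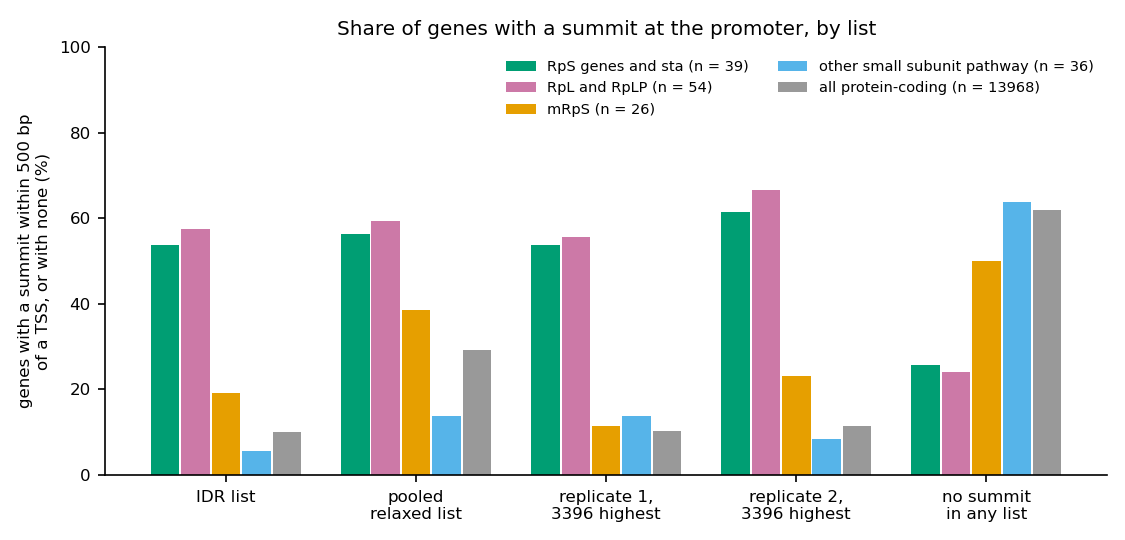
Bars give the share of genes (percent, vertical axis) with a summit within 500 bp of a TSS in the IDR list, the pooled relaxed list and the 3396 highest peaks of each replicate, and the share with no summit in any list. The 39 small subunit genes and the 54 large subunit genes stand above the mitochondrial, pathway and all-gene bars in the first 4 groups and below them in the last.

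The 54 genes of the large subunit, RpL and RpLP, were much like them, with an IDR summit at 31 (57.4%). The 26 genes of the mitochondrial small subunit, mRpS, had 5 (19.2%). The other genes of the small subunit pathway were 36 genes for initiation factors that bind the small subunit, for its assembly, and for the promoter factors Dref, M1BP and Trf2. Of these 36 genes, 2 (5.56%) had an IDR summit, against 10.1% of all coding genes. Among the 3396 highest peaks the count was 5 (13.9%, against 10.2%) in replicate 1 and 3 (8.33%, against 11.5%) in replicate 2, so the pathway genes stood near the share of all genes. The 2 pathway genes with an IDR summit were eIF3h, a subunit gene of initiation factor eIF3, and Rack1. The Rack1 protein sits on the head of the small subunit, but the gene symbol falls outside the naming rule. The Rack1 summit had a signal of 400.7 and rank 424 and lay 16 bp upstream of a TSS. The eIF3h gene had 2 IDR summits, of which the higher had a signal of 216 and lay 242 bp downstream of a TSS. Pooled summits without an IDR summit were present at hoip, eIF3f2 and Trf2, and 11 of the 36 had a summit in the whole relaxed list of replicate 1 and 8 in that of replicate 2.

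The summits of the small subunit genes sat on the start site. Over the 21 genes the median signed distance of the highest IDR summit to the nearest TSS was 12 bp downstream, with quartiles of -17 and 23 bp and extremes of -115 and 93 bp. The summit lay within 50 bp of a TSS in 17 of 21 genes (81.0%), against 206 of the 1406 coding genes with an IDR summit (14.7%). Within 100 bp lay 20 of 21 (95.2%), against 29.7% of those coding genes. The summit was upstream of the nearest TSS in 7 members (33.3%), while it was upstream in 72.5% of coding genes with a summit, where the median distance was -126 bp. Large subunit genes had a median of 5 bp and 87.1% within 50 bp. The 5 mitochondrial small subunit genes with a summit were all upstream, with a median of -128 bp.

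**Figure D2:**
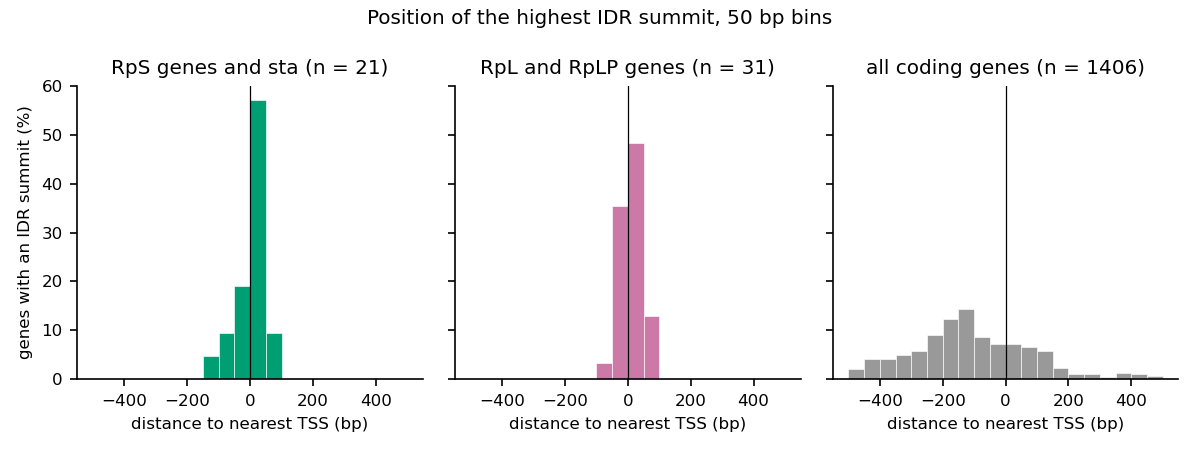
Each panel shows the percent of genes (vertical axis) whose highest IDR summit fell in each 50 bp bin of signed distance to the nearest TSS (horizontal axis, negative is upstream). For small subunit genes (n = 21) and large subunit genes (n = 31) the bars stand at the TSS, while for all coding genes (n = 1406) they spread over the window with the most upstream.

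The 21 genes held 23 IDR summits, since RpS20 and RpS23 had 2 each. Of these summits 15 lay in an annotated 5' UTR, 7 were intergenic and 1, at RpS9, was intronic. The shares of all IDR summits in these features are not given here. All 23 had a summit within 100 bp in the relaxed list of each replicate. The lowest signal of the IDR list, 126.876, was that of rank 3396 in the pooled list, and each of the 21 genes had the same rank in both. The IDR summits were thus the strongest of the pooled list, which was made from both replicates. A match in each replicate follows in large part from that. The share of all IDR peaks with such a match is not given here. Between the replicates, the highest summits of a gene were 2 to 95 bp apart with a median of 11 bp, and 15 of 21 were within 20 bp. The pair farthest apart was at RpS2. Its replicate 2 summit lay 126 bp downstream of a TSS, its replicate 1 summit 31 bp downstream. At RpS27 the replicate summits were 6 bp apart but lay 16 bp upstream and 20 bp downstream of different TSSs of that gene. Peak widths ran from 119 to 396 bp with a median of 328 bp, and 9 of the 23 had the width of 396 bp that 1885 of the 3396 IDR peaks share.

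**Figure D3:**
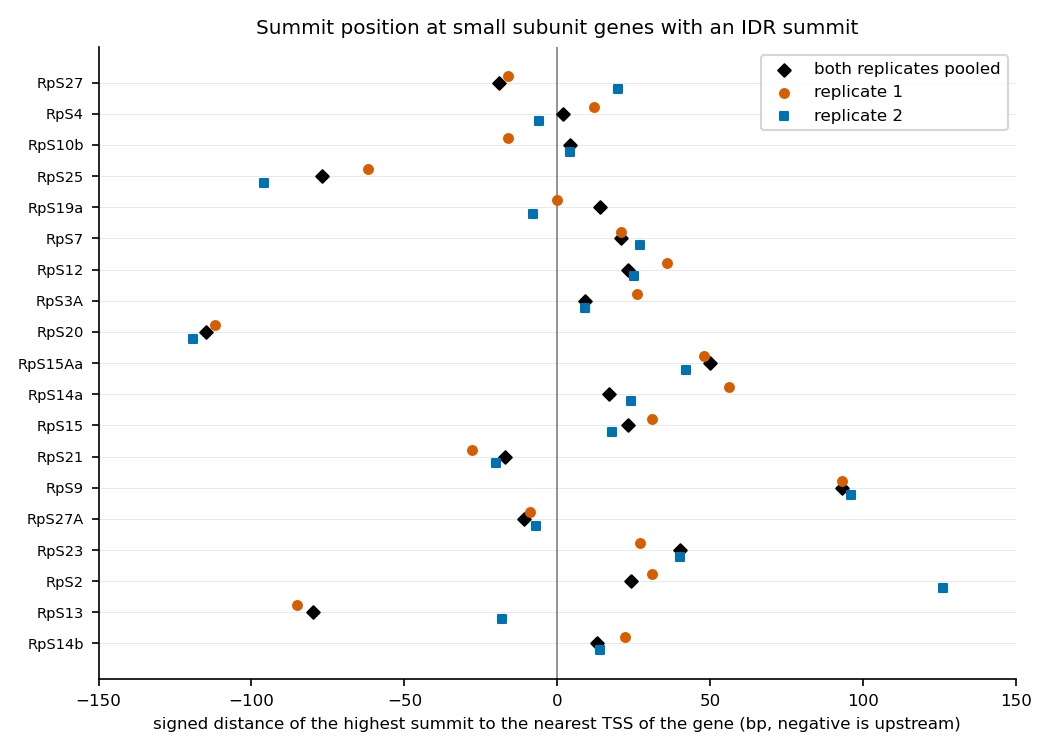
For the named genes with an IDR summit (rows, strongest at the top) the symbols give the signed distance of the highest summit to the nearest TSS in bp, from the pooled list, replicate 1 and replicate 2. Most symbols lie within 50 bp of the TSS and those of a gene lie close together, with RpS2 and RpS13 the widest apart.

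By signal, 13 of the 21 genes (61.9%) lay in the top quartile of the IDR list, at rank 849 or better, against 36.1% of coding genes with a summit. Their median rank was 753, against 1343 for those coding genes and 412 for the large subunit. The −log10 q-value was at the highest value of the list, 3.20, in 12 of the 21 genes and in 23.1% of all IDR peaks. That share is over peaks at promoters or not, and the share for coding genes with an IDR summit is not given here. Across the 21 genes the ranks in replicates 1 and 2 had a Spearman's rho of 0.892. This is a description across genes that share their libraries and were chosen from both replicates pooled. All 21 lay among the 3396 highest peaks of replicate 2 and 19 among those of replicate 1. These places also follow in part from that choice, and the share for other coding genes with an IDR summit is not given here. RpS13 and RpS14b fell outside in replicate 1, at ranks 3512 and 3985.

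Proteins of the head were encoded by 19 of the 39 genes. Of these 19, 9 (47.4%) had an IDR summit, against 10.1% of all coding genes, with a median rank of 538. RpS10b, which binds near the mRNA entry, had the highest, with a signal of 564 and ranks 199 in the pooled list, 217 in replicate 1 and 221 in replicate 2. RpS25, needed by some viral RNAs to enter the ribosome without a cap, followed with a signal of 518 and ranks 239, 296 and 225 in the same order, which is kept below. Both were marked alike in the replicates. RpS19a, whose human counterpart is mutated in Diamond-Blackfan anaemia, had a signal of 482 and ranks 293, 338 and 267. RpS12, a protein with a part in cell competition in flies, had a signal of 424 and ranks 376, 504 and 318. For RpS20 the values were 351 and ranks 538, 458 and 698, with a weaker IDR summit of signal 135 on the other side of the TSS, 86 bp downstream. RpS20 and RpS25 were the genes with the highest summit farther than 50 bp upstream besides RpS13.

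Lower in the list, but still in its top quartile, RpS15, a neighbour of the decoding centre, had a signal of 287 and ranks 810, 627 and 1078. RpS27A encodes a ribosomal protein made as a fusion to ubiquitin. It had a signal of 224 and ranks 1232, 2265 and 861, so replicate 2 placed it much higher than replicate 1.

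Proteins of the body and platform were encoded by the other 20 genes. Of these 20, 12 (60.0%) had an IDR summit, against 10.1% of all coding genes, with a median rank of 808. The highest of all members was RpS27, a zinc-binding protein, with a signal of 893 and ranks 75 in the pooled list, 70 in replicate 1 and 81 in replicate 2. RpS4 had a signal of 650 and ranks 147, 146 and 150. RpS7 had 446 and ranks 338, 397 and 312. In these genes the replicates gave nearly the same place. RpS3A lies on the small chromosome 4 and its loss is a Minute of that chromosome. Its signal was 419, with ranks 387, 516 and 351, and it was number 3 by signal among the 27 IDR peaks on chromosome 4, where the highest was 819.

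RpS15Aa had a signal of 342 and ranks 569, 771 and 505. RpS14a, a platform protein, had 298 and ranks 753, 767 and 750, and RpS21 had 280 and ranks 863, 693 and 1034. RpS9, which acts in decoding fidelity, had 264 and ranks 923, 1314 and 891. The remaining 4 were lower and apart from RpS23 ranked better in replicate 2 than in replicate 1. RpS23, at the decoding centre, had 203 and ranks 1487, 1189 and 1263, with its other IDR summit of signal 189 lying 417 bp upstream. RpS2, at the mRNA entry, had 180 and ranks 1858, 2919 and 1334. RpS13 had 158 and ranks 2310, 3512 and 1595. RpS14b had 132 and ranks 3147, 3985 and 3116, which put it nearest to the lower end of the IDR list.

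The lettered paralogs had IDR summits about as often as all members. Of the 12 lettered genes, 6 had an IDR summit, against 21 of all 39 members (53.8%), which include them, and 10.1% of all coding genes. Among the 6 were RpS10b, RpS14a, RpS14b, RpS15Aa and RpS19a. Most pairs had an IDR summit at 1 copy, and whether that goes beyond these shares was not tested. RpS14a and RpS14b, which stand 1156 bp apart in the same orientation on X, were the pair with an IDR summit at both copies. The signals were 298 and 132, and RpS14b had the weaker rank in each of the 3 relaxed lists. The partners of RpS10b, RpS15Aa and RpS19a had none. Of these partners, RpS10a and RpS19b are known for expression in the germ line. RpS10a and RpS15Ab had no summit within 500 bp in any list, with the nearest pooled summit 4473 and 13245 bp away. RpS19b had a pooled summit of signal 39.1 and rank 22701 at 58 bp downstream, and ranks 22895 in replicate 1 and 17329 in replicate 2 at positions 404 bp apart. It was the member with a summit in the pooled list but none in the IDR list, and its pooled signal was far below the threshold, which fell between signals of 126.876 and 126.866. RpS28a had no summit in any list, and RpS28b had one in replicate 2 alone. RpS28-like, a gene named for its likeness to these, had a weak summit of rank 25446 in replicate 2, 466 bp downstream.

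Beyond RpS19b, 7 of the 18 genes without an IDR summit had a summit in 1 replicate and none within 500 bp in the other replicate or in the pooled list. RpS18, a head protein near the transfer RNAs, ranked 272 in replicate 1 with a signal of 242, at 16 bp downstream, while the nearest summit in replicate 2 was 964 bp away. RpS29 ranked 1238 in replicate 1 at 37 bp downstream, with the nearest replicate 2 summit at 5420 bp, and RpS26, which contacts the mRNA upstream of the start codon, ranked 6665 at 15 bp upstream. Conversely, replicate 2 alone had summits at RpS16 (rank 290, 16 bp upstream), RpS28b (rank 405, 29 bp upstream) and RpS6 (rank 956, 85 bp downstream). The nearest replicate 1 summit was 5012 bp away at RpS16 and 7426 bp at RpS6. At RpS28b it was 574 bp away, and the nearest pooled summit 609 bp, both just outside the 500 bp window. For RpS16 the 16 bp is to the inner of 2 TSSs, and the replicate 2 summit lay in an annotated 5' UTR. RpS16 reaches the transfer RNA with its tail, and RpS6 is the target of S6 kinase. These 6 summits lay within 100 bp of a TSS of their gene. Apart from RpS26 they were strong in their own list, while the seventh, at RpS28-like, was weak and 466 bp away.

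A summit among the 3396 highest of 1 replicate with none in the other replicate or the pooled list was found at 5 of 39 members (12.8%), at 6 of 54 large subunit genes (11.1%) and at 1.16% of all coding genes. Of the 500 highest peaks of replicate 1, 9 had no summit of replicate 2 within 500 bp, RpS18 among them. Of those of replicate 2, 27 had none of replicate 1, RpS16 and RpS28b among them. What sets these sites apart was not tested, and a summit missing from a list does not show that the site was free of CG17568.

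**Figure D4:**
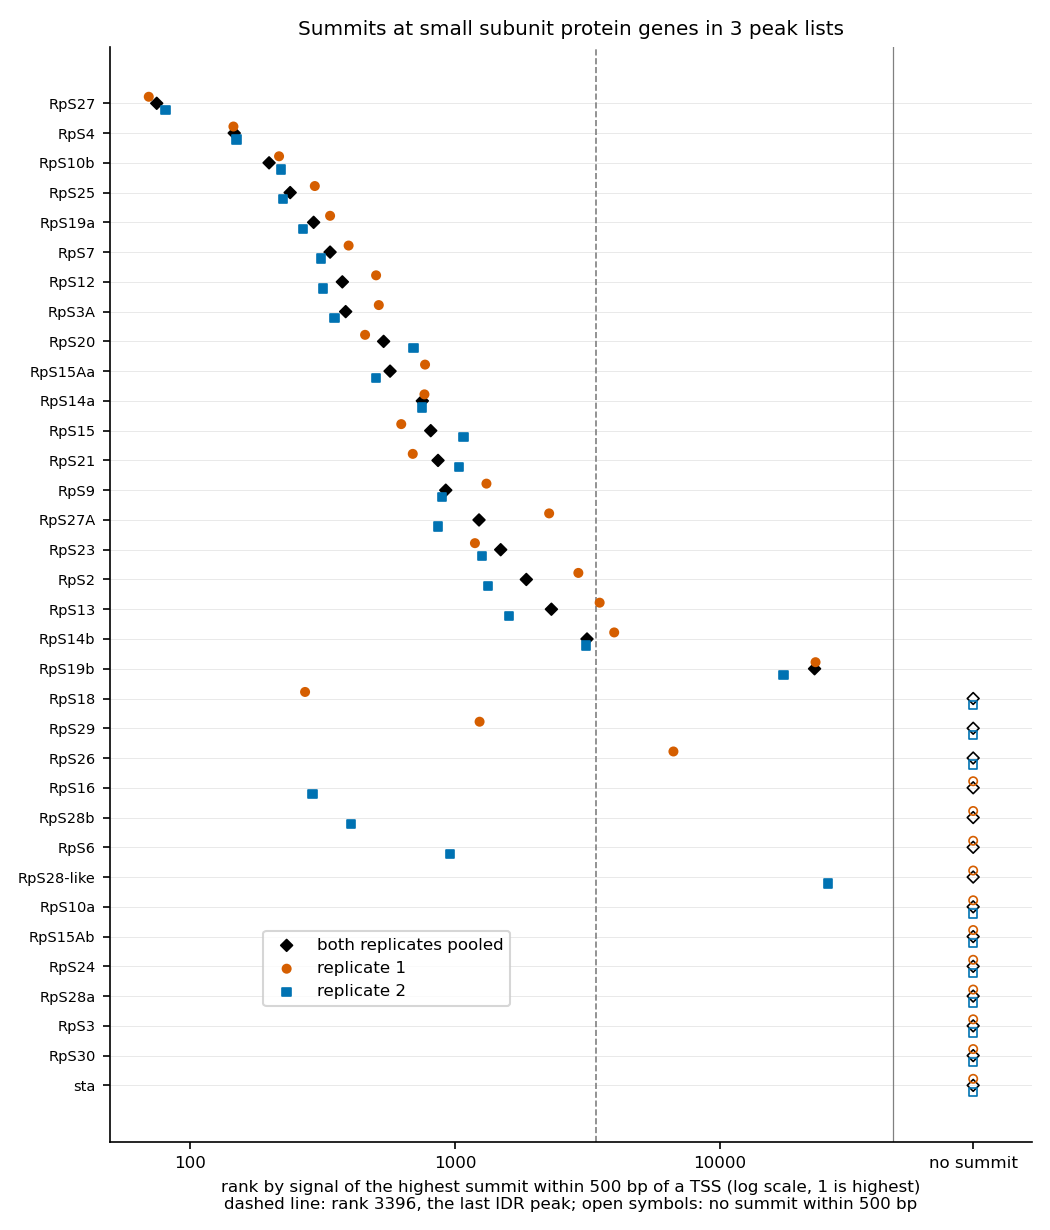
Each row is a named gene, and the symbols give the rank of its highest summit by signal (log axis, rank 1 is highest) in the pooled list, replicate 1 and replicate 2, with open symbols at the right where there was none within 500 bp. For the genes at the top, down to RpS14b, the ranks lie left of the dashed line at rank 3396 in all 3 lists, except RpS13 and RpS14b in replicate 1, while RpS18, RpS29, RpS16, RpS28b and RpS6 are left of it in 1 replicate only.

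No summit in any list was found at 10 members (25.6%), against 61.9% of all coding genes. Among them were RpS3, RpS10a, RpS15Ab, RpS24, RpS28a, RpS30 and sta. RpS3 lines the mRNA entry, RpS24 is another protein mutated in the human anaemia, and RpS30 is made as a fusion to a ubiquitin-like protein. Genes picked for having no summit nearby stand in stretches without summits by that choice. The stretch between the pooled summits on either side of the outermost TSS was 510088 bp at sta, longer than all but 6 such stretches in the list, and 27588 bp at RpS3. Over the 17 members with no pooled summit its median was 31395 bp, against 34356 bp for 9865 of the 9891 coding genes of that kind, members included. The others were 23 genes on Y and 3 with no pooled summit on one side. By this measure the members without a summit were much like other coding genes without one. The median gap between neighbouring pooled summits was 1222.5 bp, but that is over all gaps, and long gaps hold more genes without a summit.

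Several summits of small subunit genes also belonged to a neighbour. An IDR summit of 9 of the 21 genes (42.9%) lay within 500 bp of a TSS of another gene, against 42.0% of coding genes with a summit. For 8 members (38.1%) the neighbour was a coding gene, against 37.5%, and in 7 of these it was on the opposite strand. At 500 bp sharing was thus about as common as elsewhere, but this depended on the window. With 250 bp it held for 6 of 21 members (28.6%), against 31.6% of coding genes with a summit, and with 1000 bp for 20 of 23 (87.0%), against 54.7%, a comparison added after the data were seen. In all 7 genes with an opposite neighbour at 500 bp the highest summit was nearer to the ribosomal protein gene. The RpS27 summit lay in the 5' UTR, 19 bp upstream of the inner of 2 TSSs of RpS27, and 167 bp upstream of the nuclear pore gene Nup37. The RpS25 summit lay 77 bp upstream of RpS25 and 171 bp upstream of CG4820, and the RpS13 summit 80 bp upstream of RpS13 and 113 bp upstream of CSN8, a COP9 signalosome subunit gene. For RpS21 the neighbour was CG3104 at 275 bp, for RpS20 CG17271 at 218 bp, for RpS14a Dhdds at 408 bp and for RpS19a Rok, a kinase gene, at 494 bp. RpS27A shared its TSS with Ip259, so its summit lay 11 bp upstream of both. The RpS12 summit was 205 bp upstream of the intron-encoded snoRNA:Me28S-A774b, and the weaker RpS20 summit 343 bp upstream of snoRNA:Psi18S-1295.

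CTTT, the letters of the TCT core, was more common near the start sites of the members than near those of all coding genes. Whether a CTTT away from the TSS acts as the initiator was not tested. CTTT with its C within 2 bp of an annotated TSS was found at 10 of 39 members (25.6%), against 3.27% of all coding genes. With the C allowed within 10 bp, a width chosen after the sequences were seen, it was found at 29 (74.4%), against 14.9%. Genes with several TSSs had more chances of a match. Within 10 bp it was found at 18 of the 21 members with an IDR summit and at 11 of the 18 without, and within 2 bp at 4 and 6, so the core did not separate these groups in a fixed direction. In the 18 genes with core and summit, the summit lay between 149 bp before and 89 bp after the C, with a median of 5 bp after it, and within 25 bp in 11 genes. At RpS4 it lay 1 bp before the C and at RpS14b 7 bp after it, as can be placed in the sequences above. At RpS27 it lay 23 bp and at RpS25 81 bp before the C, outside the printed bases.

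Other motifs were sought on both strands, in the 250 bases before and 50 after the outermost TSS and within 50 bp of the highest IDR summit. The DRE, TATCGATA, bound by Dref, was in the promoter of 13 of 39 members (33.3%), against 9.36% of coding genes, but within 50 bp of the summit in RpS25 alone (1 of 21, 4.76%, against 1.64%). The core of motif 1, GGTCACAC, bound by M1BP, was in 6 promoters (15.4%, against 7.69%) and near 2 of 21 summits, that of RpS15 among them (9.52%, against 1.21%). The E-box CAGCTG was near the summits of RpS14b, RpS21 and RpS27 (14.3%, against 5.12%) and in 15.4% of promoters, against 17.6%. TATAAA was near 1 of 21 summits, that of RpS25, against 24.3% of coding genes with a summit, and in 53.8% of promoters, against 45.8%. GAGAG was near 2 of 21 summits, that of RpS15Aa among them (9.52%, against 11.9%) and in 10.3% of promoters, against 29.7%. CAGGTAG, the Zelda motif, was in no member's promoter, against 1.64%. A match is a string of letters and not a measured site, and summits at the TSS and upstream of it sample different sequence.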

How the data were processed

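ChIP-seq peak lists of 2 replicates of 1 group were analysed. Per the deposited text files, all lists are narrowPeak on dm6, made by the authors from each replicate, from both pooled, and by IDR from these. The peak caller and the aligner were not given in the sources used here, nor was the threshold of the IDR step. The signal score of each peak is the authors' own, on a scale they do not state, and the deposited −log10 q-value is 1 per peak. The p-value column, deposited by the authors, held -1 throughout. Summits are column 2 plus column 10, printed 1-based. TSSs are all transcript starts in Ensembl release 115 (BDGP6), without transposable elements, and each gene takes its highest summit within 500 bp. Summits within 100 bp in different lists count as the same site. The assignment was tested on 200 simulated summits. Python 3.11.15, numpy 2.4.6, pandas 2.3.3 and matplotlib 3.10.9 were used.

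Members, lists, the split into head and body, and descriptions were chosen with earlier results of these data known, so no test was made. All members enter the counts, but results of a few are not reported here by name. Other members are named, with other genes named where they share a summit or belong to the pathway list. Of its 22 fixed symbols 20 matched, besides 16 eIF3 genes. Alternatives were other windows, TSS choices, the upper 1698 IDR peaks, each replicate alone and other matching distances. A control experiment named in the labels was not used here.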

Additional observations from a re-analysis of the deposited data

How the results depend on the processing

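No paired analysis was possible because there is 1 group and no test. The count of small subunit genes with an IDR summit, 21, ran from 18 in the upper 1698 IDR peaks to 23 with a window of 1000 bp, and was 24 in replicate 2 alone and 21 in replicate 1 alone. With summits matched within 50 bp, 21 of 23 IDR summits had a counterpart in both replicates, and 19 did among the 3396 highest of each. The median distance stayed between 4 and 21 bp downstream. With a window of 1000 bp, 20 genes shared a summit with another gene in place of 9. The upper 1698 IDR peaks marked 824 coding genes in place of 1406, as fewer peaks were used. CTTT within 10 bp of a TSS was at 29 members in place of 10, since a wider window has more positions. No depth is known.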

Other observations

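Some small subunit genes stood close to a strong IDR summit that lay outside the 500 bp window. The highest peak of the IDR list, with a signal of 3471.7, had its summit 577 bp upstream of RpS15 and 275 bp upstream of CG4927, so the RpS15 summit and the strongest site of the genome were 600 bp apart. RpS19b, with only a weak relaxed summit at its own TSS, had an IDR summit of rank 167 and signal 611 at 883 bp upstream, with no TSS of another gene within 500 bp of it. RpS28b, which had its summit in replicate 2 alone, had an IDR summit of rank 453 and signal 387 at 817 bp upstream, 56 bp upstream of the neighbouring l(1)G0320. These genes were picked after their values were seen. Other members had weaker IDR summits outside the window, and the share of all coding genes with such a summit is not given here.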
